A study of Mus musculus with 24 samples.

Results

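The 10 genes described here encode the excitation-contraction coupling machinery and the calcium store of striated muscle: Cacna1s, Cacng1, Ryr1, Jph1, Jph2, Casq1, Casq2, Srl, Atp2a1 and Atp2a2. They were chosen by name as parts of this machinery, with earlier results of these data known. Every probe set that maps to one of these symbols alone was used, which gave 18 of 34945 probe sets tested and 10 of 18193 genes. Gene expression was measured on 24 mouse Affymetrix arrays in 8 groups of 3, 1 array per sample. Lentivirus carried MyoD, a master regulator of skeletal muscle, or NeuroD2, a neuronal member of the same basic helix-loop-helix family. Batch 1 held MEFs with MyoD, P19 cells with MyoD and untransduced controls of both. Batch 2 held MEFs labelled NeuroD2 and untransduced MEFs, and batch 3 held P19 cells with NeuroD2 and untransduced P19 cells. P19 is a pluripotent mouse embryonal carcinoma line. The MEFs, embryonic fibroblasts, came from Myod-/-/Myf5-/- mice in all 4 MEF groups, so the controls also lacked both myogenic factors. Per the labels' protocols, RNA of transduced P19 cells was taken at 72 hours. MEFs with MyoD spent 48 hours in growth conditions and then 36 to 40 hours in differentiation medium. No harvest time for MEFs labelled NeuroD2 was found in the labels. The controls were untransduced, so virus, medium and factor cannot be told apart in any comparison with them.

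In skeletal muscle, a depolarised T-tubule membrane moves the voltage sensor, a dihydropyridine receptor whose pore subunit is encoded by Cacna1s and whose gamma subunit is encoded by Cacng1. The sensor opens the ryanodine receptor Ryr1 in the facing sarcoplasmic reticulum, and the junctophilins Jph1 and Jph2 hold both membranes together at the triad. Calsequestrins (Casq1, mainly in skeletal fibres, and Casq2, the cardiac form that embryonic and slow skeletal muscle also make) and sarcalumenin (Srl) bind calcium inside the store, and the SERCA pumps Atp2a1 and Atp2a2 refill it. Atp2a1 is the pump of fast fibres, while Atp2a2 has a form of heart and slow muscle and a housekeeping form found in most cells.

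All values are log2 signals as deposited, in which a step of 1 is a doubling or halving, and levels are compared between groups for the same probe set only. Differences are the group with the factor minus the controls of its batch, given with their standard error (SE) from limma, and a gene was called, and is said to have risen or fallen, at a Benjamini-Hochberg adjusted p under 0.05 over all 34945 probe sets. Genes with several probe sets are described on the probe set of highest average signal (the best probe set) unless another is named. The number of arrays limits the precision, and nothing in the labels ties replicates to separate cultures, so p-values measure only the spread between these samples, which may be technical.

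One array stood apart. P19 control replicate 2 of batch 1 had quartiles of 4.79 and 7.63, against 4.47 to 4.58 and 8.23 to 8.39 in the other 23 arrays, and its values for several genes lay far from those of its 2 companions. Many results that use it are given with and without it, the second value coming from a fit that leaves it out. It also enters the shared estimate of the spread in comparisons of other groups. In MEFs with MyoD the SE of Cacna1s was 0.25 with it and 0.12 without, and that of Cacng1 0.23 and 0.085. Myod1 averaged 12.73 ± 0.11 in MEFs with MyoD and 7.18 ± 0.035 in their controls, and 9.66 ± 0.082 in P19 cells with MyoD and 5.72 ± 0.29 in theirs (SD, n = 3 each). Neurod2 averaged 7.68 ± 0.42 in P19 cells with NeuroD2 and 5.98 ± 0.13 in their controls on 1 of 3 probe sets, but none of the 3 was called in MEFs labelled NeuroD2 (differences of -0.06, 0.21 and -0.12). The summed linear signal of 8 skeletal muscle markers was 81000 to 85400 in MEFs with MyoD against 282 to 297 in their controls, and 1640 to 1690 in P19 cells with MyoD against 360 to 521 in theirs. The 6 fibroblast markers summed to 34100 to 37000 in MEFs with MyoD and 66500 to 70100 in their controls, and their part in the results was not tested. In these bulk samples fewer cells of a type and less RNA per cell cannot be told apart.

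The promoters below show which E-boxes, the CANNTG motif that basic helix-loop-helix factors bind, lie in front of members that differ in their response to MyoD. RefSeq promoter sequence (GRCm38.p6) was matched for 6 of the 10 genes, Cacna1s, Ryr1, Jph2, Casq1, Casq2 and Atp2a1, over the 250 bases before the start in the table, and motifs were counted in that window. The printed windows are chr1:136052561-136052805 on the plus strand for Cacna1s, chr1:172219896-172220145 on the minus strand for Casq1, chr3:102086165-102086414 on the plus strand for Casq2 and chr7:126463104-126463323 on the minus strand for Atp2a1. They run 5′ to 3′ in the direction of the gene, end at the outermost annotated start, and carry every CANNTG in capitals.
Cacna1s: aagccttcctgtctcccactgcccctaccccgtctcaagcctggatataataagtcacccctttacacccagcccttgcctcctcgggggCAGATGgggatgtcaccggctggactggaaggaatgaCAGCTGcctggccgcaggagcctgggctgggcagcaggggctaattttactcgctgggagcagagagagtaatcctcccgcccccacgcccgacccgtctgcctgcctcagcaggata
Casq1: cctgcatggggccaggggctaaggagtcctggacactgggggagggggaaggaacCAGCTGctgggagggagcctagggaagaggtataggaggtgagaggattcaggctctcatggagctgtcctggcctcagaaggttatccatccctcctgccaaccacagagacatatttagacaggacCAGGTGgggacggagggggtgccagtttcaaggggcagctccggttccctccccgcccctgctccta
Casq2: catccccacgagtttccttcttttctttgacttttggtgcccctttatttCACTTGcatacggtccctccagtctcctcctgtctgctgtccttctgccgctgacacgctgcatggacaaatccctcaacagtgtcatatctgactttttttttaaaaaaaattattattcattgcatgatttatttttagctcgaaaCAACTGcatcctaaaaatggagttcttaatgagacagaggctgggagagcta
Atp2a1: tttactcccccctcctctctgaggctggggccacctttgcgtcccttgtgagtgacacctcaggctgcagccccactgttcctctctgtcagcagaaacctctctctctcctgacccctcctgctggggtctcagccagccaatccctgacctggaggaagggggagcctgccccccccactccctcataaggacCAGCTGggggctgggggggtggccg
A CANNTG stood in 5 of the 6 promoters, against 66.2% of all 32851 promoters of this length. CAGCTG, which reads the same on both strands and which MyoD is known to bind, stood in the promoters of 4 (Cacna1s, Jph2, Casq1 and Atp2a1), against 13.0% of all. CAGGTG, searched on either strand, stood in 1 (Casq1), against 17.2% of all. CAGATG, an E-box used by neuronal factors, stood on either strand in 1 (Cacna1s), against 14.4% of all. All 3 motifs are forms of CANNTG. Counted back from the end of the printed sequence, CAGCTG began 118 bases before it in Cacna1s, 195 in Casq1 and 25 in Atp2a1. In Jph2, which is not printed, it began 9 and 29 bases before the 2 starts in the table, inside the annotated gene, and the stretch before the outermost start held none. Casq2 held CACTTG and CAACTG and no CAGCTG, and Ryr1 held no CANNTG in the window. A match is a description of the letters and not evidence of binding.

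In MEFs with MyoD the whole set was higher than in untransduced MEFs. All 10 genes rose, by 1.34-fold (Atp2a2) to 130-fold (Srl), where 10.6% of all 18193 genes were called higher and 14.3% lower. The median log2 difference of the 10 was 5.16, against 0 over all genes. Among all probe sets 10.3% were called higher and 12.9% lower, and of the 18 probe sets of the members 15 were called higher and 0 lower.

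**Figure D1:**
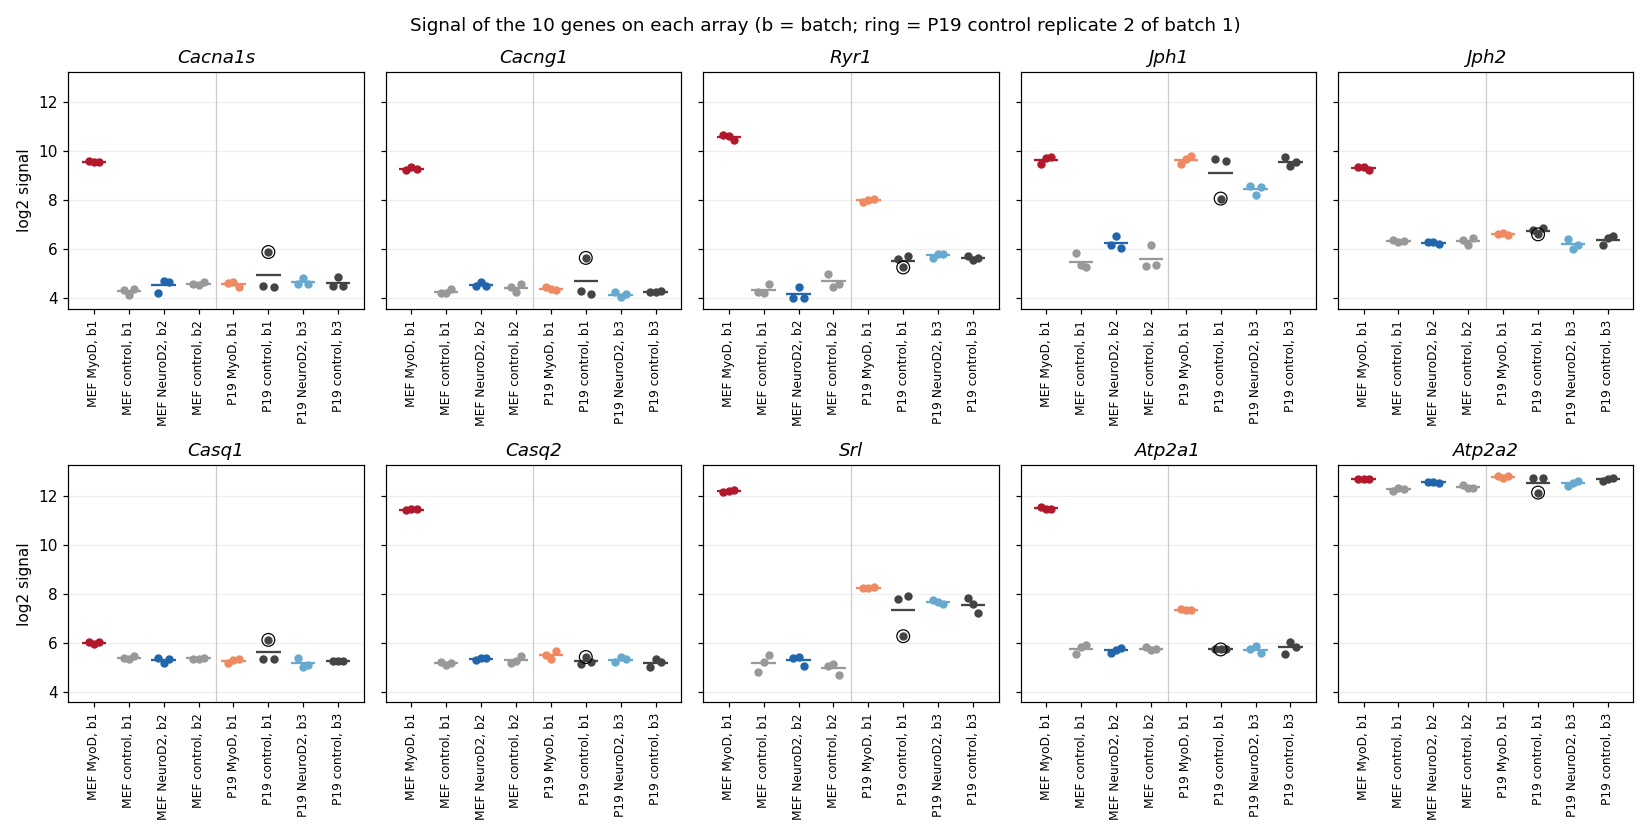
Log2 signal (vertical axis) of the 10 member genes in each of the 24 samples, 1 panel per gene, on the best probe set. Points are samples and bars the means of the 8 groups of 3. For every gene except Jph1, Casq1 and Atp2a2, MEFs with MyoD stand above all other samples without overlap, and Ryr1, Srl and Atp2a1 have P19 cells with MyoD in second place.

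Both voltage sensor genes rose. Cacna1s (chr1:136052806-136119822, GRCm38.p6), the pore-forming subunit, had 9.60, 9.58 and 9.55 in MEFs with MyoD, against 4.33, 4.14 and 4.40 in their controls. The groups lay far apart, with a difference of 5.29 ± 0.25 (SE), 39-fold (adjusted p = 6.3e-13, limma). Cacng1 (chr11:107703218-107716476), the gamma subunit of the skeletal muscle channel, had 9.23, 9.35 and 9.28 with MyoD, against 4.21, 4.20 and 4.37. Its difference was 5.03 ± 0.23, 32.6-fold (adjusted p = 6.4e-13, limma). Over the means of the 8 groups the 2 subunits followed each other with a Pearson r of 1 to 2 decimals, which describes 8 points of which MEFs with MyoD stand far from the rest.

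The release channel Ryr1 (chr7:29003340-29125179) had 10.68, 10.62 and 10.47 in MEFs with MyoD, against 4.25, 4.23 and 4.60 in their controls. The difference was 6.23 ± 0.15, 75.2-fold (adjusted p = 1.59e-17). A second Ryr1 probe set gave 7.52, 7.44 and 7.57 with MyoD, against 5.14, 4.94 and 5.16. Both probe sets moved the same way without overlap of the groups, the second by 2.43 ± 0.28 (adjusted p = 7.6e-07).

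Both junctophilins rose in MEFs with MyoD. Jph1 (chr1:16942104-17097922), the junctophilin of skeletal muscle, had 9.50, 9.71 and 9.75 with MyoD, against 5.84, 5.38 and 5.28 in controls, a difference of 4.15 ± 0.31 (17.8-fold, adjusted p = 1.11e-09). Its second probe set rose by 2.01 ± 0.18 (adjusted p = 1.66e-08). Jph2 (chr2:163336242-163398049), found in both heart and skeletal muscle, had 9.37, 9.35 and 9.24 with MyoD, against 6.40, 6.30 and 6.35, a difference of 2.97 ± 0.11 (7.83-fold, adjusted p = 2.48e-14). A second Jph2 probe set had 7.16, 7.09 and 6.93 with MyoD, against 6.24, 6.14 and 6.34. These groups did not overlap either, but the difference of 0.82 ± 0.32 did not pass (adjusted p = 0.0756, and 0.000137 without the P19 array that stood apart, which enters the shared estimate of the spread).

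The store buffers differed widely in how far they moved. Casq2 (chr3:102086415-102146514) had 11.39, 11.43 and 11.43 in MEFs with MyoD, against 5.21, 5.10 and 5.16 in controls, a difference of 6.26 ± 0.11 (76.6-fold, adjusted p = 1.05e-19). Srl (chr16:4476979-4541908) had 12.16, 12.18 and 12.22, against 4.79, 5.21 and 5.50, a difference of 7.02 ± 0.29 (130-fold, adjusted p = 7.77e-14). Casq1 (chr1:172209894-172219895), the calsequestrin of adult skeletal fibres, moved far less. It had 6.01, 5.93 and 6.01 with MyoD, against 5.38, 5.31 and 5.46, a difference of 0.60 ± 0.15 (1.51-fold, adjusted p = 0.00423). The groups did not overlap, yet all 6 values lay below 6.40, the median of all values tested, where signals on this array are compressed toward background. Casq2 and Jph2 are also made in the heart, so cardiac markers were set beside them. The 8 cardiac markers summed to 301 to 316 in MEFs with MyoD and 293 to 306 in controls, with 1 called higher (Gata4, mean 6.01 against 5.45) and 1 lower (Hand2, 4.94 against 5.71). Nppa, Nppb, Myl7 and Myh6 had means of 4.26 to 5.35 with MyoD and 3.95 to 5.16 in controls.

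Of the pumps, Atp2a1 (chr7:126445858-126463103) had 11.53, 11.43 and 11.47 in MEFs with MyoD, against 5.55, 5.80 and 5.89 in controls. That is a difference of 5.73 ± 0.11, 53.2-fold (adjusted p = 5.26e-19). Atp2a2 (chr5:122453513-122502225) was high in every sample on its best probe set, at 12.69, 12.68 and 12.67 with MyoD against 12.20, 12.30 and 12.28. The difference of 0.42 ± 0.12 passed (1.34-fold, adjusted p = 0.0112), but without control replicate 1 it was 0.39 with an adjusted p of 0.0511. Without the P19 array that stood apart it was 0.42 ± 0.065 (adjusted p = 1.98e-05). Other probe sets of Atp2a2 moved further. The pair 1416551_at and 1452363_a_at, each gave a difference of 2.03 (SE 0.2 and 0.097), 4.09-fold, and 1427251_at one of 1.18 ± 0.18 (adjusted p of 8.1e-08, 8.76e-13 and 2.95e-05). On the probe set 1452363_a_at the samples had 11.18, 11.17 and 11.18 with MyoD against 9.12, 9.15 and 9.16. The remaining pair were not called (0.23 ± 0.16 and 0.15 ± 0.15). Which transcript forms each probe set reads was not tested.

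**Figure D2:**
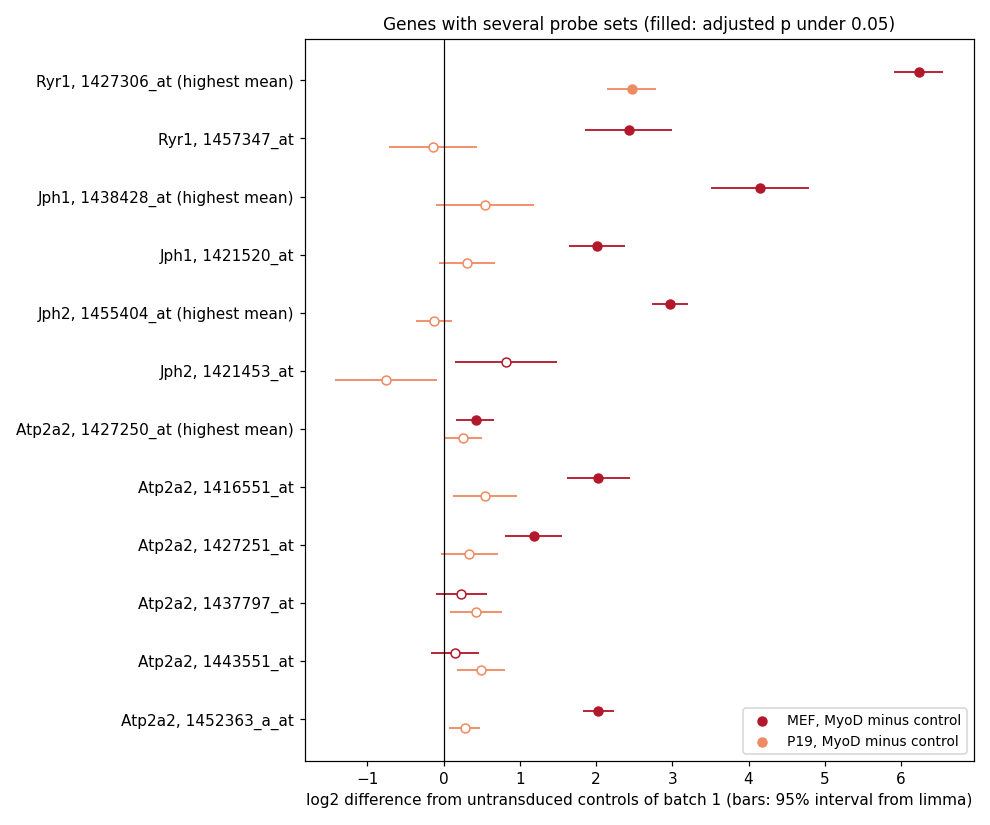
Log2 difference (horizontal axis) with its 95% interval for every probe set of the genes that have several, in the MyoD comparisons of MEFs and of P19 cells, with filled points where the adjusted p is under 0.05. In MEFs the Atp2a2 probe sets spread from 0.15 to 2.03, and the Ryr1 probe sets are at 6.23 and 2.43.

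In P19 cells with MyoD 2 of the 10 genes rose, Ryr1 and Atp2a1, and none fell, where 1.97% of all genes were called higher and 0.665% lower. Ryr1 had 7.94, 8.01 and 8.05 in P19 cells with MyoD, against 5.62, 5.26 and 5.72 in their controls. The groups did not overlap, and the difference was 2.47 ± 0.15 (adjusted p = 1.9e-09), or 2.34 ± 0.15 without the array that stood apart (adjusted p = 1.78e-09). The second Ryr1 probe set was not called, at 5.93, 5.54 and 5.63 with MyoD against 5.38, 6.94 and 5.22 (-0.14 ± 0.28, and 0.41 ± 0.13 without that array, adjusted p = 0.127). Atp2a1 had 7.39, 7.32 and 7.33, against 5.72, 5.72 and 5.73. All samples with MyoD lay above all controls, by 1.62 ± 0.11 (adjusted p = 1.15e-08), and the difference was the same without that array (adjusted p = 1.23e-08). The median of the 10 was 0.25, and 0.13 without the array, against 0.04 over all genes.

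The other 8 members did not pass in P19 cells. Srl, the calcium-binding store protein, had 8.23, 8.24 and 8.27 with MyoD, against 7.79, 6.26 and 7.91 in controls. The groups did not overlap, but the low value came from the array that stood apart, and the difference was 0.93 (95% interval 0.32 to 1.53, adjusted p = 0.0913), or 0.40 ± 0.18 without it (adjusted p = 0.321). Leaving out control replicate 1 or 3 instead, which leaves that array as 1 of 2 controls, called Srl at 1.16 (adjusted p = 0.0214) or 1.22 (adjusted p = 0.0146). Jph1 was already high, at 9.48, 9.69 and 9.81 with MyoD against 9.68, 8.07 and 9.61, with a difference of 0.54 (-0.1 to 1.18), or 0.02 without that array. Cacna1s was low in both groups, with 4.61, 4.67 and 4.48 against 4.52, 5.89 and 4.46 (difference -0.37, -0.88 to 0.14, and 0.10 without the array). Cacng1 likewise had 4.45, 4.40 and 4.33, against 4.28, 5.65 and 4.18 (-0.31, -0.8 to 0.18, and 0.17 without). In both voltage sensor genes the only value above 5 among these 6 samples was that of the array that stood apart. Casq2, which rose 76.6-fold in MEFs, had 5.48, 5.34 and 5.64 in P19 cells with MyoD, against 5.13, 5.41 and 5.19 (0.24, 0.01 to 0.46, adjusted p = 0.16). The groups overlapped, and with repeated quantile normalization the gene was called (0.34, adjusted p = 0.0478). The differences of Jph2 (-0.13, -0.36 to 0.11), Casq1 (-0.35, -0.66 to -0.05) and Atp2a2 (0.26, 0.01 to 0.5) did not pass either, and without that array they were -0.20, -0.10 and 0.06. Without control replicate 1 or 3 instead, Casq1 was called lower (-0.48 each, adjusted p of 0.0332 and 0.0258) and Atp2a2 higher (0.36 and 0.35, adjusted p of 0.0403 and 0.0347).

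**Figure D3:**
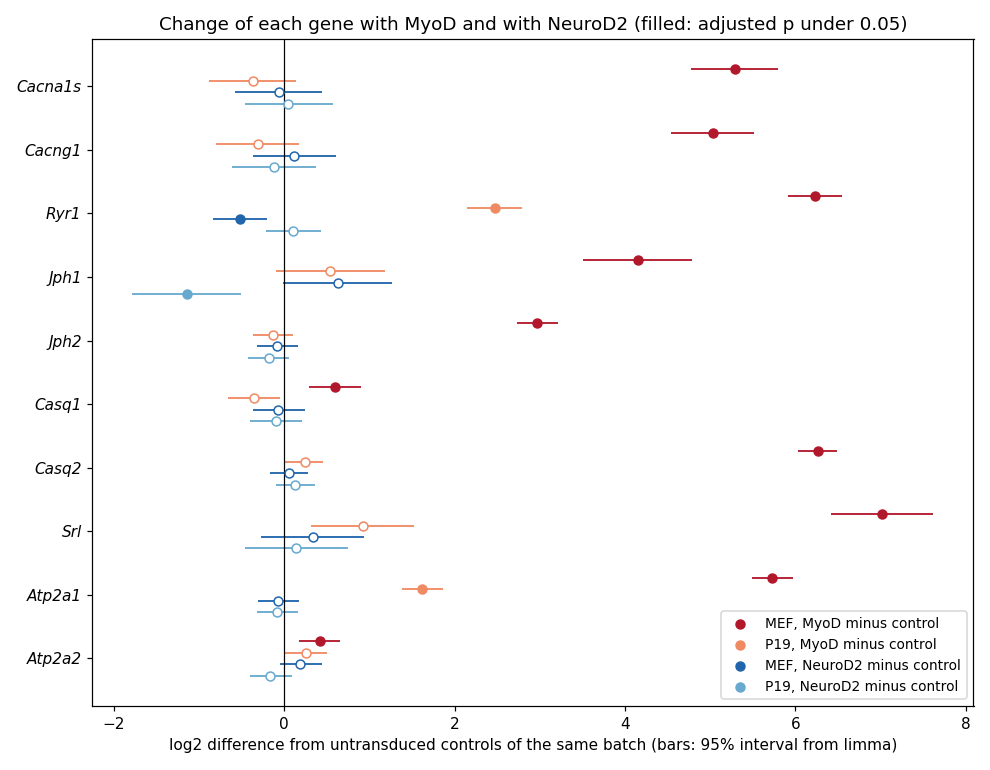
Log2 difference (horizontal axis) with its 95% interval for the 10 member genes in the 4 comparisons of a factor with the controls of its batch, filled where the adjusted p is under 0.05. In MEFs with MyoD 9 of the 10 genes lie at 0.60 or above and 8 above 2, while in P19 cells with MyoD only Ryr1 and Atp2a1 are filled.

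The response to MyoD differed between the cell types. Tested as the difference of both effects, 9 of the 10 genes had a larger one in MEFs than in P19 cells, where 6.25% of all genes were called higher in this contrast and 14.4% lower. The difference of the effects was 6.02 ± 0.15 for Casq2, 6.09 ± 0.41 for Srl, 5.65 ± 0.35 for Cacna1s and 5.34 ± 0.33 for Cacng1. For the 2 genes that rose in both cells it was 4.11 ± 0.16 for Atp2a1 and 3.76 ± 0.22 for Ryr1, and for Jph1, Jph2 and Casq1 it was 3.61 ± 0.43, 3.10 ± 0.16 and 0.95 ± 0.21. Atp2a2 was the exception on its best probe set (0.16 ± 0.17, adjusted p = 0.514), and without the array that stood apart it was called as well (0.36 ± 0.098, adjusted p = 0.00847). Its probe sets 1416551_at, 1427251_at and 1452363_a_at were called with it in the fit (1.49, 0.84 and 1.76). MEFs with MyoD were also moved to differentiation medium, which the labels do not report for P19 cells, and were harvested at a different time. Myod1 itself was at 12.73 in MEFs and 9.66 in P19 cells. Cell type, medium, harvest time and level of the factor therefore cannot be told apart.

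The untransduced cells started from different levels. Among batch 1 controls, 5 of the 10 genes were lower in MEFs than in P19 cells and 0 higher, where 26.5% of all genes were called lower and 24.7% higher. Jph1 had 5.84, 5.38 and 5.28 in MEF controls, against 9.68, 8.07 and 9.61 in P19 controls (-3.62 ± 0.31, adjusted p = 3.76e-09). MEFs with MyoD thus reached a mean of 9.65 ± 0.13, whose range overlapped those of P19 cells with MyoD (9.66 ± 0.17) and P19 controls of batch 3 (9.58 ± 0.19) and batch 1 (9.12 ± 0.91). Srl had 4.79, 5.21 and 5.50 in MEF controls, against 7.79, 6.26 and 7.91 in P19 controls (-2.15 ± 0.29, adjusted p = 2.69e-06). Ryr1 was also lower in MEF controls (-1.17 ± 0.15, adjusted p = 1.94e-06), as was Jph2 (-0.40 ± 0.11, adjusted p = 0.00583). These 4 were called without the array that stood apart too, at -4.15, -2.68, -1.31 and -0.48 for Jph1, Srl, Ryr1 and Jph2. Cacna1s was called at -0.67 ± 0.25 (adjusted p = 0.0304), but not without that array (-0.20, adjusted p = 0.234) or without MEF control replicate 1 or 2 (adjusted p of 0.0582 and 0.0983). Without the array that stood apart Atp2a2 was called in its place on its best probe set (-0.44, adjusted p = 2.41e-05). The Atp2a2 probe sets 1416551_at and 1427251_at went the other way. With that array in the fit they were called higher in MEF controls (0.65 and 0.57, adjusted p of 0.0105 and 0.0112). Without it they were not called (0.34 and 0.32).

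Ordered by level over the 8 groups, Ryr1, Srl and Atp2a1 shared one pattern at the top. MEFs with MyoD came first and P19 cells with MyoD next, and neither range overlapped the one below it. Ryr1 averaged 10.59 ± 0.11 and 8.00 ± 0.056 in these 2 groups, and 4.17 to 5.75 in the other 6. Its second probe set did not share this order. There P19 cells with MyoD (5.70 ± 0.21) stood below P19 controls of batch 1 (5.84 ± 0.95), with overlapping ranges. Srl averaged 12.19 ± 0.03 and 8.25 ± 0.023, then 7.32 to 7.66 in the other 3 P19 groups and 4.95 to 5.29 in the other 3 MEF groups. The difference of Srl in P19 cells with MyoD was not called. Atp2a1 averaged 11.48 ± 0.051 and 7.35 ± 0.036, and the other 6 groups lay between 5.68 and 5.80 with overlapping ranges. For Casq1 every group's range overlapped that of its neighbour in the order, from 5.98 ± 0.049 in MEFs with MyoD to 5.15 ± 0.19 in P19 cells with NeuroD2. The overlap at the top came from the array that stood apart, at 6.11 against 5.35 in each of its companions. Every other sample lay below MEFs with MyoD.

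With NeuroD2 few members were called. In MEFs labelled NeuroD2, 1 of the 10 genes fell and 0 rose, where 5.88% of all genes were called lower and 6.31% higher. That gene was Ryr1, with 4.0, 4.48 and 4.03 against 5.01, 4.48 and 4.59 in the controls of batch 2. The groups met at 4.48, the second probe set was not called (-0.29, adjusted p = 0.722), and the difference of -0.52 ± 0.15 (adjusted p = 0.0294) was no longer called without NeuroD2 replicate 1 or 3 or control replicate 1 (adjusted p of 0.156, 0.141 and 0.205). Without the array that stood apart, Ryr1 stayed called (-0.52, adjusted p = 0.0059). Jph1 (0.63, adjusted p = 0.0183) and Atp2a2 (0.19, adjusted p = 0.0357) were then called higher in addition. The second Jph1 probe set was not called in that fit (0.08, adjusted p = 0.788). Casq2 had 5.29, 5.39 and 5.36, against 5.17, 5.26 and 5.44, a difference of 0.06 (-0.17 to 0.28). The 6 neuron markers summed to 462 to 493 in MEFs labelled NeuroD2 and 214 to 301 in their controls.

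In P19 cells with NeuroD2, Jph1 fell and no member rose, where 3.06% of all genes were called lower and 5.0% higher. Jph1 had 8.58, 8.21 and 8.54 with NeuroD2, against 9.78, 9.39 and 9.56 in the controls of batch 3. The groups did not overlap, and the difference was -1.14 ± 0.31 (adjusted p = 0.0244). Its second probe set had 6.64, 6.33 and 6.57, against 7.86, 6.98 and 7.15, and fell by 0.81 ± 0.18 (adjusted p = 0.00489). The call on the first probe set was lost without control replicate 1 or 3 (adjusted p of 0.0898 and 0.0628). It was also lost without NeuroD2 replicate 2 or 3 (adjusted p of 0.12 and 0.0569). Against the controls of batch 1 the difference was -0.68 (adjusted p = 0.1). P19 control replicate 2 of batch 1 enters only the shared spread of the batch 3 comparison. With that replicate left out, the call held (-1.14 ± 0.19, adjusted p = 0.000164). The other 9 differences lay between -0.18 (Jph2) and 0.14 (Srl). The 6 neuron markers summed to 7680 to 11800 in P19 cells with NeuroD2 and 1900 to 3210 in their controls, and their part in the fall of Jph1 was not tested. Jph1 was also the one member whose response to NeuroD2 differed between the cell types, by 1.77 ± 0.43 for MEFs minus P19 cells (adjusted p = 0.00988), where 4.49% of all genes were called higher and 5.57% lower. Without the array that stood apart, Atp2a2 (0.35, adjusted p = 0.00839) was called higher and Ryr1 (-0.63, adjusted p = 0.0195) lower in addition.

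Set against each other, the factors differed on most members in MEFs. The effect of MyoD was larger than that of NeuroD2 for 9 of the 10 genes in MEFs, where 8.19% of all genes were called higher in this contrast and 10.3% lower, by 0.66 ± 0.21 (Casq1) to 6.75 ± 0.22 (Ryr1). The call of Casq1 was lost when any of 9 of the 12 MEF arrays was left out (adjusted p of 0.0537 to 0.0825). Without the P19 array that stood apart, which enters only the shared estimate of the spread here, Casq1 stayed called (0.66 ± 0.12, adjusted p = 0.000123). Atp2a2 was not called on its best probe set (0.23, -0.12 to 0.57), but it was on 1416551_at (1.67), 1427251_at (0.92) and 1452363_a_at (1.78, adjusted p of 0.000173, 0.0126 and 3.82e-09). It was also called with the mean of all its probe sets (0.71, adjusted p = 0.00391), in a fit on only the arrays compared (adjusted p = 0.0338) and with array weights (adjusted p = 0.00877). In P19 cells it was larger for 3, Ryr1 (2.36, adjusted p = 3.09e-07), Atp2a1 (1.70, adjusted p = 4.65e-07) and Jph1 (1.68 ± 0.43, adjusted p = 0.0263), where 2.48% of all genes were called higher and 2.88% lower. For Jph1 the contrast joins an uncalled difference with MyoD and a fall with NeuroD2, and it was 1.16 without the array that stood apart (adjusted p = 0.0114). That call was lost without MyoD replicate 2 or 3, NeuroD2 replicate 2 or batch 3 control replicate 1 or 3 (adjusted p of 0.0512 to 0.0781), and in a fit on only the arrays compared (adjusted p = 0.21). No Neurod2 probe set was called in MEFs labelled NeuroD2, and the labels report differentiation medium only for MEFs with MyoD. In MEFs, the factor, its level, medium and harvest time therefore cannot be told apart in this contrast. The factors were measured in different batches, each against its own controls. Between those controls no member was called in MEFs (batch 2 minus batch 1), where 1.37% of all genes were called higher and 1.32% lower. In P19 cells (batch 3 minus batch 1) Jph2 was called lower (-0.36, adjusted p = 0.0423), where 3.44% of all genes were called lower and 10.6% higher, and that call was lost without replicate 3 of batch 1 or replicate 1 or 2 of batch 3 (adjusted p of 0.0656, 0.163 and 0.0549). Without the array that stood apart Jph2 stayed called (-0.43, adjusted p = 0.0114). Between the same P19 controls the Atp2a2 probe sets 1443551_at and 1427251_at were called higher (0.65 and 0.55, adjusted p of 0.00837 and 0.0466). Without that array 1443551_at stayed called (0.56, adjusted p = 0.0174) and 1427251_at did not (0.30, adjusted p = 0.197).

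Partners of the same machinery were read from 4 lists. Of 18 genes of the voltage sensor and the triad, 17 were measured, and in MEFs with MyoD 12 rose, 3 fell and 2 did not pass, where 10.6% of all genes were called higher and 14.3% lower. The median difference was 1.92, against 0 over all genes. Stac3, an adaptor that the skeletal voltage sensor needs at the triad, averaged 11.28 ± 0.028 in MEFs with MyoD and 5.51 ± 0.048 in controls (5.77 ± 0.19). Tmem38a, the TRIC-A potassium channel of the sarcoplasmic reticulum, averaged 10.05 ± 0.08 and 5.83 ± 0.14 (4.22 ± 0.13). Ank1, whose small muscle form ties the reticulum to the myofibril, differed by 3.54 ± 0.12, and Jsrp1, a triad protein that binds the voltage sensor, by 3.07 ± 0.34. The 3 that fell, named after their values were seen, were Asph (-1.45), Fkbp1b (-0.98), which binds ryanodine receptors, and Mtm1 (-0.93), a phosphoinositide phosphatase. Mtm1 also differed between the untransduced MEFs of batch 2 and batch 1, by -1.27 (adjusted p = 0.000286), which is more than its fall with MyoD. In P19 cells with MyoD, where 1.97% of all genes were called higher, 1 of the 17 rose, Cacna2d1, the accessory subunit of the sensor (1.57 ± 0.36, adjusted p = 0.0224, and 0.88 without the array that stood apart, adjusted p = 0.0162), and the median was 0.17. Cacna2d1 was also called higher in MEFs with MyoD (1.98), in MEFs labelled NeuroD2 (1.71) and in P19 cells with NeuroD2 (2.69).

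Pump regulators and calcium buffers moved both ways. In MEFs with MyoD 3 of 8 rose, 2 fell and 3 did not pass, against 10.6% of all genes called higher and 14.3% lower, with a median of 0.07. Pvalb, the cytosolic buffer parvalbumin of fast fibres, averaged 10.33 ± 0.11 in MEFs with MyoD and 5.79 ± 0.18 in controls (4.54 ± 0.21). Hrc, a histidine-rich protein of the store lumen, averaged 10.09 ± 0.088 and 5.81 ± 0.18 (4.28 ± 0.14), and Tmem38b, the TRIC-B channel found in most cells, rose by 3.03 ± 0.33. The 2 that fell were Calu (-0.70) and, named after its value was seen, Calr (-0.52), which encode calcium-binding proteins of the endoplasmic reticulum, calumenin and calreticulin. In P19 cells none of the 8 was called, with a median of 0.27, and 2 were called higher without the array that stood apart.

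Relatives of the member genes were counted in the same way. Of 9 other members of the same families, 0 rose and 1 fell in MEFs with MyoD, against 10.6% and 14.3% of all genes, so the count is near the share over all genes, and the median was 0.01. The one that fell was Cacna1c, the pore of the cardiac and smooth muscle L-type channel, with means of 5.72 ± 0.19 in MEFs with MyoD and 7.33 ± 0.16 in controls (-1.61 ± 0.19, adjusted p = 1.14e-06). The smooth muscle markers (5) summed to 23500 to 23800 in MEFs with MyoD and 14900 to 16100 in controls, with 1 called higher and 0 lower. In P19 cells with MyoD, where 1.97% of all genes were called higher, 1 of the 9 rose, Ryr2, the ryanodine receptor of the heart, with means of 5.74 ± 0.26 against 4.89 ± 0.25 (0.84 ± 0.16, adjusted p = 0.00419, and 0.70 without the array that stood apart, adjusted p = 0.0098). In MEFs with MyoD Ryr2 averaged 4.30 ± 0.13 and in their controls 4.29 ± 0.16. With NeuroD2 in P19 cells 3 of the 9 rose, Cacng4 (1.60), Cacna1c (1.16) and Jph3 (0.73), a junctophilin of the brain, all named after their values were seen, where 5.0% of all genes were called higher, and in MEFs labelled NeuroD2 none was called.

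Of 12 genes for other release channels and for calcium entry and export, 10 were measured. In MEFs with MyoD 4 rose and 1 fell, against 10.6% of all genes called higher and 14.3% lower, with a median of 0.14. Orai1, the pore of store-operated entry, and Mcu, the mitochondrial calcium uniporter, each rose by 1.45, and Stim2, a sensor of store calcium, by 0.93. Itpr3, an inositol trisphosphate receptor, fell by 2.31 ± 0.099 (adjusted p = 1.43e-13), to 7.31 ± 0.097 in MEFs with MyoD, against 9.62 ± 0.051 in controls. In MEFs labelled NeuroD2 it fell by 2.25 as well, against the controls of batch 2. In P19 cells with MyoD, where 1.97% of all genes were called higher, 1 of the 10 rose, the sodium-calcium exchanger Slc8a3 (0.99 ± 0.14, adjusted p = 0.000307), and the median was 0.13.

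**Figure D4:**
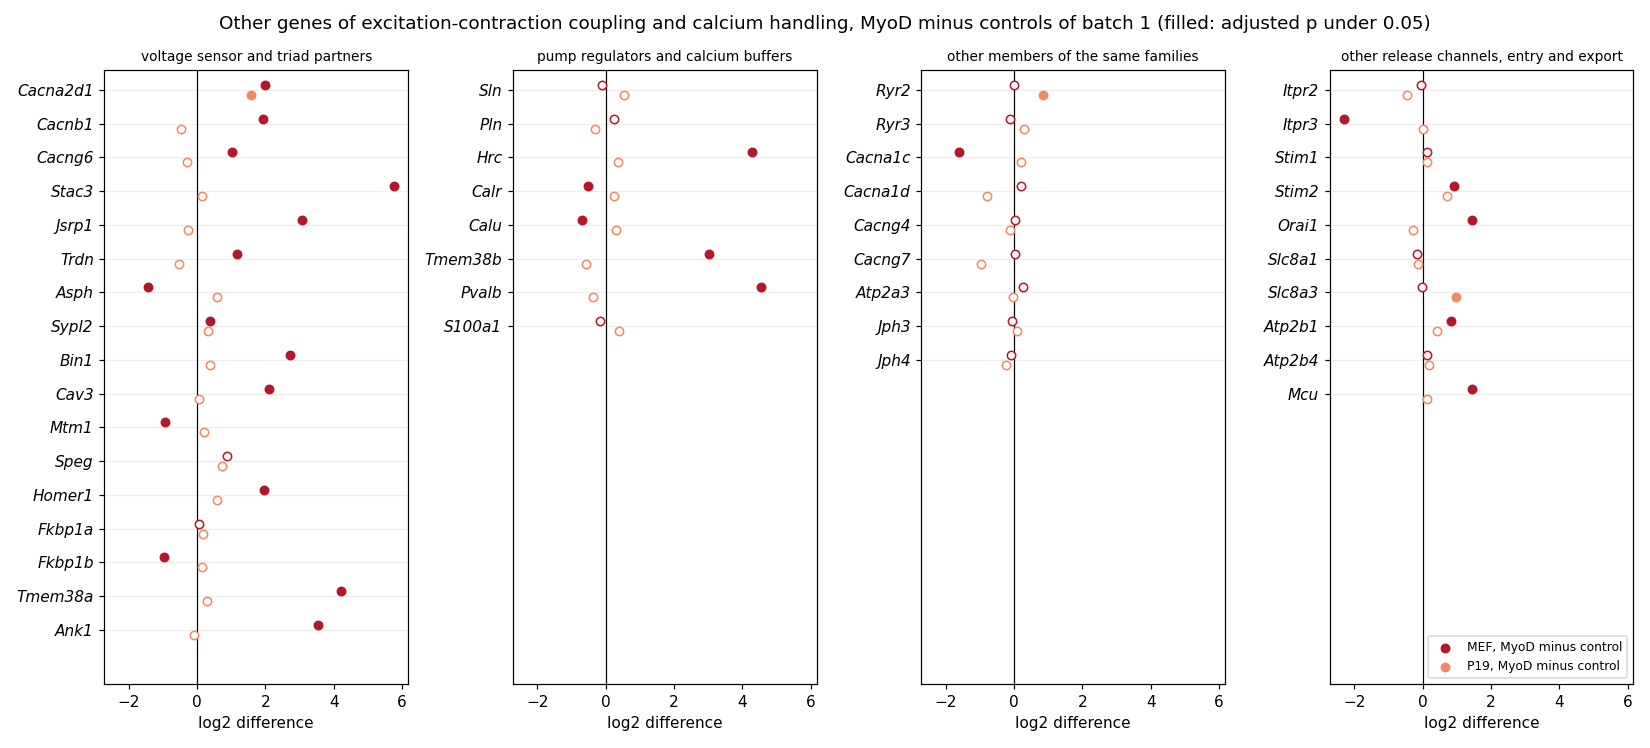
Log2 difference (horizontal axis) in MEFs with MyoD and in P19 cells with MyoD for each measured gene of the 4 lists, filled where the adjusted p is under 0.05. In MEFs the 17 voltage sensor and triad genes run from -1.45 (Asph) to 5.77 (Stac3), while the 9 other family members have 1 filled point, Cacna1c at -1.61.

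The genes whose group means followed a member most closely over the 8 groups are given here as a description. For Cacna1s they were Inpp4b, Chrnd and Pygm (Pearson r of 0.999, 0.998 and 0.996), for Cacng1 Cobl, Prkag3 and Ckm (0.999, 0.999 and 0.998), and for Casq2 Mymx, Tmem182 and Tnnt3 (1, 0.999 and 0.999). For Jph2 they were Myom3, Pgam2 and Cfap52 (0.998, 0.997 and 0.997). The highest values for the other members were as follows. Ryr1 was followed by Myh7, Fam126a and Pdlim3 (0.988, 0.986 and 0.984), Srl by Nes, Hdac11 and Dync1i1 (0.995, 0.99 and 0.986), and Atp2a1 by Myog, Mylpf and Tnni1 (0.999, 0.999 and 0.998). Jph1 was followed by Ddc, Cdk17 and Prkaa2 (0.989, 0.984 and 0.983), Casq1 by Ampd1, Trdn and Gckr (0.982, 0.979 and 0.976) and Atp2a2 by Smim4, Armc6 and Atad1 (0.959, 0.937 and 0.932). With 8 points, of which MEFs with MyoD often stand alone, these values rank genes and test nothing.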

How the data were processed

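RNA of 24 samples was measured on mouse Affymetrix arrays. Values are log2 signals as deposited by the authors, with near-equal quartiles in 23 of 24 columns of the deposited table. Background correction, normalization and summary methods were not given in the sources used here. The tool limma is named per the submitters' processing notes, with no version. Low signals are compressed toward background, so differences of weak genes can be understated. Infection used 8 µg/ml polybrene, with a medium change at 24 hours, per the labels' protocols. Sample titles gave the group, batch and replicate number, because other labels describe samples with MyoD as neuronally differentiated.

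Of 45101 probe sets, 64 Affymetrix controls, 9160 without a symbol and 932 with several were set aside. A mean per group was fitted to the other 34945 over all 24 arrays with limma 3.58.1 (lmFit and eBayes, 16 residual and 3.74 prior degrees of freedom) in R 4.3.3. Tests were two-sided and adjusted by Benjamini-Hochberg over all probe sets, and 18193 genes were counted on the probe set of highest average signal. The fit was tested on simulated data. Samples were not treated as paired by replicate number. Correlations of same-numbered deviations from the group means were -0.21 to 0.34 between P19 cells with MyoD and their controls and 0 to 0.07 between MEFs with MyoD and theirs. They were 0.06 to 0.18 between P19 cells with NeuroD2 and their controls. These values do not settle whether the numbers pair samples, and the fit has no replicate block.

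The members and gene lists were chosen with earlier results of these data known. Named from the lists were up to 4 called genes with the largest change in each MyoD comparison, and genes named beyond that rule are marked as such. Each member was also given the 3 genes with the highest Pearson r over the 8 group means. Coordinates and promoters are RefSeq's for GRCm38.p6. Alternatives were repeated quantile normalization, the median over arrays, leaving out dim probe sets, the mean of all probe sets, other fits, array weights, a replicate block, controls of the other batch and leaving out each array.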

Additional observations from a re-analysis of the deposited data

Results flagged for a closer look

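The effect of MyoD differed between MEFs and P19 cells, tested as the difference of both effects, for 9 member genes. MEFs minus P19 cells gave 5.65 ± 0.35 (SE, log2) for Cacna1s (adjusted p = 1.54e-10, limma), 5.34 ± 0.33 for Cacng1 (1.76e-10), 3.76 ± 0.22 for Ryr1 (5.91e-11), 3.61 ± 0.43 for Jph1 (3.08e-06) and 3.10 ± 0.16 for Jph2 (1e-11). It gave 0.95 ± 0.21 for Casq1 (0.00234), 6.02 ± 0.15 for Casq2 (2.37e-16), 6.09 ± 0.41 for Srl (6.15e-10) and 4.11 ± 0.16 for Atp2a1 (1.38e-13). Without P19 control replicate 2 of batch 1, the array that stood apart, the same 9 were called, and Atp2a2 in addition (0.36). The values were then 0.70 for Casq1, 4.13 for Jph1, 5.19 for Cacna1s, 4.86 for Cacng1 and 3.90 for Ryr1. They were 3.17 for Jph2, 5.94 for Casq2, 6.62 for Srl and 4.11 for Atp2a1. For Jph1, which P19 controls already held at 9.12 ± 0.91 against 5.50 ± 0.30 in MEF controls, levels with MyoD were 9.65 ± 0.13 in MEFs and 9.66 ± 0.17 in P19 cells. Whether a high starting level limits its change in P19 cells was not tested.

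The effect of NeuroD2 on Jph1 differed between the cell types by 1.77 ± 0.43 (adjusted p = 0.00988, MEFs minus P19 cells). It joins an uncalled difference in MEFs labelled NeuroD2 (0.63, adjusted p = 0.267), in which no Neurod2 probe set was called, with a fall in P19 cells (-1.14, adjusted p = 0.0244), each against the controls of its own batch.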

How the results depend on the processing

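There were 1919 values of single member genes under alternatives, with an array left out only in comparisons that use its group. Of these, 1843 kept their side of the threshold, 39 lost a call, 37 gained one and 0 calls reversed direction. Uncalled values could change sign. Dropping P19 control replicate 2 of batch 1 moved Cacna1s from -0.37 to 0.1 and Cacng1 from -0.31 to 0.17 in P19 cells with MyoD. With a replicate block, 10 members were again called higher in MEFs with MyoD, and the block changed no call of a member. Repeated quantile normalization left 0 called lower in MEFs labelled NeuroD2 and 2 for the difference of NeuroD2 effects, and it called 3 rather than 2 members higher in P19 cells with MyoD, Casq2 being the addition. It also called Atp2a2 in the control comparison (-0.50, adjusted p = 2.01e-06) and in the difference of MyoD effects (0.37, adjusted p = 0.00552). Fitting only the arrays compared gave 0 lower in MEFs labelled NeuroD2, 3 lower in MEF than P19 controls and 0 lower between P19 control batches, as did an intensity trend in the fit (0). The mean of all probe sets gave 1 higher and 0 lower between P19 control batches. Array weights gave 2 higher in MEFs labelled NeuroD2, 2 lower in P19 cells with NeuroD2, 4 higher and 1 lower for the difference of NeuroD2 effects and 2 higher between MEF control batches. The weights stopped before convergence and gave replicate 1 of the P19 controls of batch 1, not only replicate 2, almost none (0.00351 and 0.0108). Controls of the other batch gave 0 lower in MEFs labelled NeuroD2 and 2 lower in P19 cells with NeuroD2. Leaving out dim probe sets removed Casq1.

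Leaving out 1 array gave 9 to 10 genes higher in MEFs with MyoD, 2 to 4 higher and 0 to 1 lower in P19 cells with MyoD, where 4 and 1 came from leaving out control replicate 1 or 3, and 0 to 1 lower with NeuroD2 in either cell type. It gave 4 to 6 lower in MEF than P19 controls, 9 to 10 higher for the difference of MyoD effects, 1 higher and 0 to 1 lower for that of NeuroD2 effects, 8 to 9 higher for MyoD over NeuroD2 in MEFs and 2 to 3 in P19 cells, and 0 to 3 lower between P19 control batches. These ranges cover only arrays of the groups compared, although every array enters the shared estimate of the spread. P19 control replicate 2 of batch 1 is in no NeuroD2 comparison, yet leaving it out changed calls there. It gave 2 higher and 1 lower in MEFs labelled NeuroD2, and 2 higher and 1 lower for the difference of NeuroD2 effects. The cause of these changes was not tested.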
